A study of Mus musculus with 6 samples.

Results

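Genes that build spermatids and sperm were examined in mouse embryonic stem (ES) cells grown with or without vitamin C. The group was a list of 42 genes for sperm chromatin, the acrosome and sperm surface, the flagellum, sperm energy supply and regulators active around and after meiosis. Each gene was represented by a probe set that the platform annotation gives to that gene symbol alone, and where a gene had more than 1 such probe set, by the one with the highest mean over all 6 arrays. All 42 listed genes were measured in this way, out of 19938 genes tested, and each of the 42 had 1 probe set. The rule for the list, called the sperm genes below, names gene functions and uses no measured value. The list was nevertheless chosen with earlier results of these data known.

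In the male germ line, meiosis is followed by a phase in which round haploid cells are rebuilt into sperm. Histones are replaced by transition proteins and then by protamines, a secretory vesicle becomes the acrosome, and a flagellum with outer dense fibres and a fibrous sheath is assembled. Many of the genes are used in no other cell type, and several encode germ-cell versions of enzymes that all other cells make from a related gene. Some germ-line genes are known to be kept silent in other cells by methylation of a CpG-rich promoter, while many late spermatid genes have CpG-poor promoters.

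The cells were Oct4-GiP mouse ES cells, a line that the labels name without further description, on gelatin in N2B27 medium with LIF (1000 U/ml), the MEK inhibitor PD0325901 (1 μM) and the GSK3β inhibitor CHIR99021 (3 μM). The vitamin C group (3 arrays) received L-ascorbic acid 2-phosphate at 200 μg/ml for 72 hours, and the untreated group (3 arrays) was grown alike without it. The design text of the series calls the replicates biological. No germ cell or testis sample was measured alongside, so the levels below have no positive control for sperm genes. The 10 ES cell markers were bright on every array, with a mean log2 signal per array of 10.35 to 10.47, and Pou5f1, which encodes Oct4, lay at 11.24, 11.26 and 11.28 on the untreated arrays and at 11.16, 11.18 and 11.09 on the vitamin C arrays (not called). Of the 10 markers 3 (30%) were called higher (limma), Nanog by 0.29 (adjusted p = 0.0168), Zfp42 by 0.30 (0.0214) and Utf1 by 0.29 (0.0313), and none lower. Of all genes tested, 5.75% were called higher and 7.4% lower. The differences were above 0 for 7 of the 10 markers and below 0 for 3, Pou5f1 (-0.12), Dppa5a (-0.14) and Esrrb (-0.05). Signals are RMA values on a log2 scale, and a level can be compared between arrays for the same gene but not between genes.

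The results turn on 4 genes, and the bases before their annotated starts are shown so that their CpG dinucleotides can be compared. Each sequence is the 250 bases upstream of the start, 5′ to 3′ on the gene's strand, from RefSeq (GRCm38.p6), with CpG dinucleotides in capitals. Dpep3 lies at chr8:105979420-105979669 (minus strand), Slc25a31 at chr3:40708621-40708870 (plus strand), Tex101 at chr7:24672051-24672300 (minus strand) and Brdt at chr5:107330944-107331193 (plus strand). The protamine gene Prm1, at chr16:10796824-10797073 (minus strand), is shown for contrast as a gene that did not pass the test and was chosen after its values were seen.
Dpep3: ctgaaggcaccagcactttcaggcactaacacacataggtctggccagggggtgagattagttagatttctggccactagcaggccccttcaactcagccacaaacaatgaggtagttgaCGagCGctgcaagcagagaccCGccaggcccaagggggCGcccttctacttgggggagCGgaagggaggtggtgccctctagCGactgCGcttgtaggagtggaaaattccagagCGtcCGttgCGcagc
Slc25a31: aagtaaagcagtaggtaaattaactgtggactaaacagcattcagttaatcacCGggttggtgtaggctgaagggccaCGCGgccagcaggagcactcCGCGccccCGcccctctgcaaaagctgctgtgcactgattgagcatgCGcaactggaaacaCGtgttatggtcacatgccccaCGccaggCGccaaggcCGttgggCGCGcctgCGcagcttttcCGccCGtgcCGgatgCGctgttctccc
Tex101: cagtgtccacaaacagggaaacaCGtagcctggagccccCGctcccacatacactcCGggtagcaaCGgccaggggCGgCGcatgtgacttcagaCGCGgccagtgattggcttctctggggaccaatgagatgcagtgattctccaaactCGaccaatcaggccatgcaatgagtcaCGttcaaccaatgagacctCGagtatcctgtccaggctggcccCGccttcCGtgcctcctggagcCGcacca
Brdt: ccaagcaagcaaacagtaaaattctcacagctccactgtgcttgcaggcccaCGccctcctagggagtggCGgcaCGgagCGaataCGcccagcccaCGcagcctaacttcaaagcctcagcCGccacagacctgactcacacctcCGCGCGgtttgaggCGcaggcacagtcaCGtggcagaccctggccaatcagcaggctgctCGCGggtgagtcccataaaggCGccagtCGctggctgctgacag
Prm1: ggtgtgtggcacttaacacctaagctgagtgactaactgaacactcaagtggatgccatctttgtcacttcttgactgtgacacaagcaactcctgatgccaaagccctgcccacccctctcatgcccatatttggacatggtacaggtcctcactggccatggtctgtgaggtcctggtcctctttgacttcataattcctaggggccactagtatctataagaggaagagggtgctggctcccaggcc
These stretches hold 10 CpG dinucleotides for Dpep3, 18 for Slc25a31, 14 for Tex101, 16 for Brdt and 0 for Prm1. Prm1 does not stand for all sperm genes that did not pass. In longer windows of 300 bases, described below, their counts ran from 0 to 41, with a median of 4.

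Of the 42 genes, 4 rose with vitamin C, none fell and 38 did not pass the test (limma, adjusted p under 0.05 over all genes). The genes that rose were Dpep3, Slc25a31, Tex101 and Brdt. Over all genes tested, 5.75% were called higher, 7.4% lower and 13.2% in either direction. The 4 calls are 9.52% of the sperm genes, more than the share of all genes called higher and less than the share called in either direction. Whether these shares differ was not tested, and a list chosen with earlier results known gives no independent share. At an unadjusted p under 0.05, 8 of the 42 were higher and 2 lower (13.7% and 15.3% of all genes). A trended and robust spread model called 1 gene lower, Cyct. The median log2 difference (vitamin C minus untreated) was 0.03 over the 42 genes and 0.01 over all genes. The untreated and vitamin C arrays were fully separate for 10 of the 42 genes (23.8%), against 35.0% of all genes. In these cultures a change in the number of cells that make an RNA and a change in RNA per cell cannot be told apart.

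**Figure D1:**
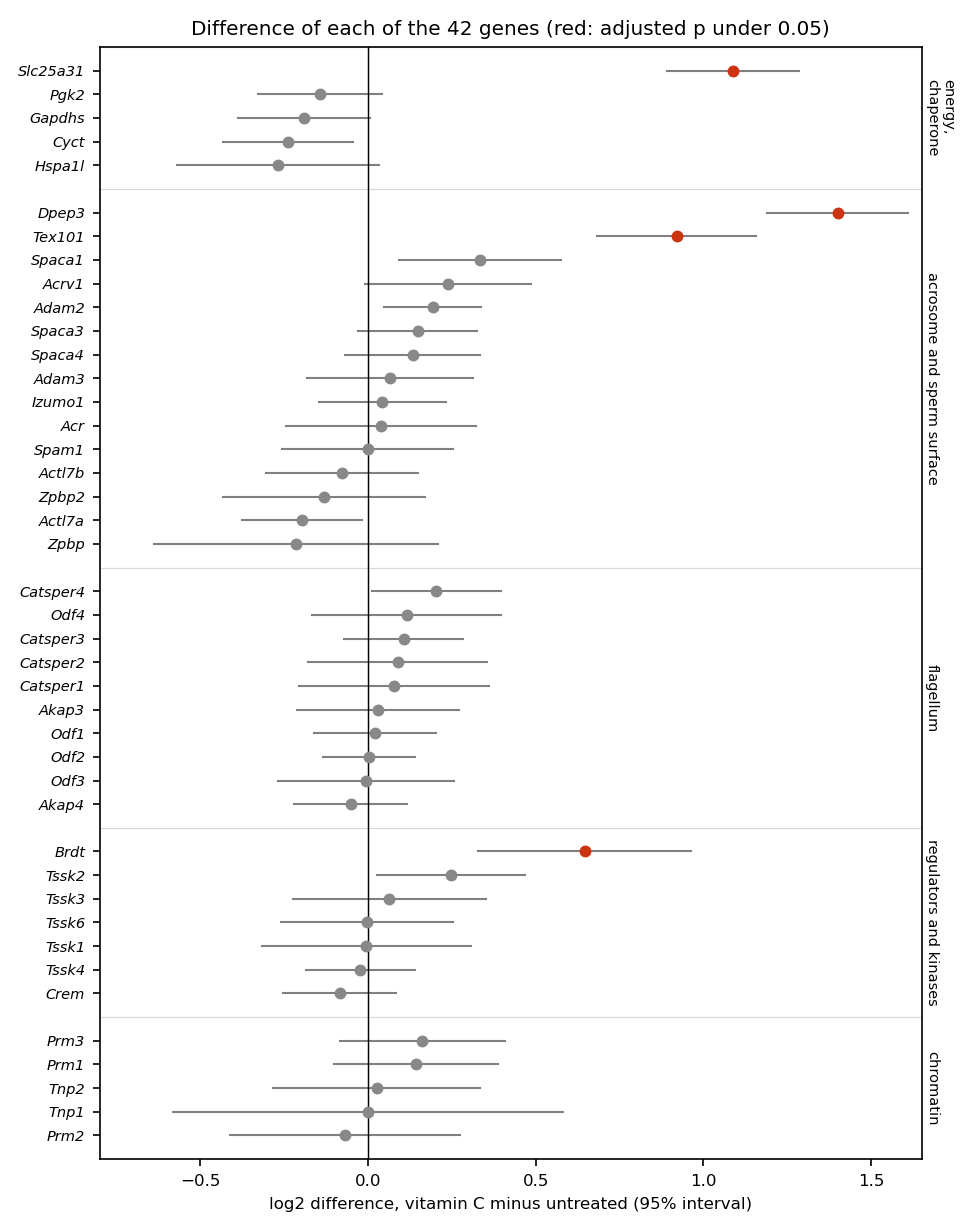
Log2 difference (vitamin C minus untreated, x axis) of each of the 42 genes, grouped by role, with the 95% confidence interval of the limma fit as a line; red points passed the test. The 4 red points, Dpep3, Slc25a31, Tex101 and Brdt, lie between 0.65 and 1.40, and all other genes lie between -0.27 and 0.33.

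Dpep3 and Tex101 encode partner proteins of the germ-cell surface. Dpep3 is a membrane-bound dipeptidase of testicular germ cells held by a lipid anchor, and it is known to form a complex with Tex101, a lipid-anchored glycoprotein that sperm need to mature their surface proteins. The log2 signal of Dpep3 (probe set 10581421, chromosome 8) was 5.64, 5.86 and 5.93 on the untreated arrays and 7.21, 7.13 and 7.28 on the vitamin C arrays. The groups were far apart relative to their spread, and every vitamin C array lay more than 1 unit above every untreated array. The difference was 1.40 ± 0.09 (SE, n = 3 per group), a 2.64-fold rise (limma, adjusted p = 0.000241), which ranked 43 by size of rise among the 19938 genes.

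Tex101 (probe set 10560873, chromosome 7) had 5.61, 5.58 and 5.63 on the untreated arrays and 6.31, 6.56 and 6.70 on the vitamin C arrays. The untreated arrays were nearly equal, and the vitamin C arrays were all higher but more spread. The difference was 0.92 ± 0.10 (SE, n = 3 per group), a 1.89-fold rise (limma, adjusted p = 0.00203).

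Slc25a31 encodes the germ-cell member of the mitochondrial ADP/ATP carriers, which exchange ATP made in mitochondria for cytosolic ADP. It serves male meiosis, when its X-linked relative Slc25a5 is silent. Its probe set (10491773, chromosome 3) had 5.66, 5.51 and 5.80 on the untreated arrays and 6.74, 6.72 and 6.78 on the vitamin C arrays. The vitamin C arrays agreed closely and lay above all untreated arrays. The difference was 1.09 ± 0.08 (SE, n = 3 per group), a 2.13-fold rise (limma, adjusted p = 0.000576).

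Brdt encodes the testis member of the BET bromodomain proteins, which bind acetylated histones and in spermatids take part in removing them. Its probe set (10523822, chromosome 5) had 5.48, 5.36 and 5.28 on the untreated arrays and 5.80, 5.94 and 6.33 on the vitamin C arrays. The groups did not overlap, but vitamin C replicate 3 was well above the other two. The difference was 0.65 ± 0.14 (SE, n = 3 per group), a 1.56-fold rise (limma, adjusted p = 0.0223). This call was lost in 6 of the 18 alternative settings, among them a threshold of 0.01 and the fits without untreated replicate 2 (limma adjusted p = 0.0653) or 3 (0.0721), without moderation of the variance (0.112) and with all probe sets tested (0.0675). Without vitamin C replicate 3 the difference was 0.49 and passed. The calls of Dpep3, Slc25a31 and Tex101 held in each of these 18 settings.

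**Figure D2:**
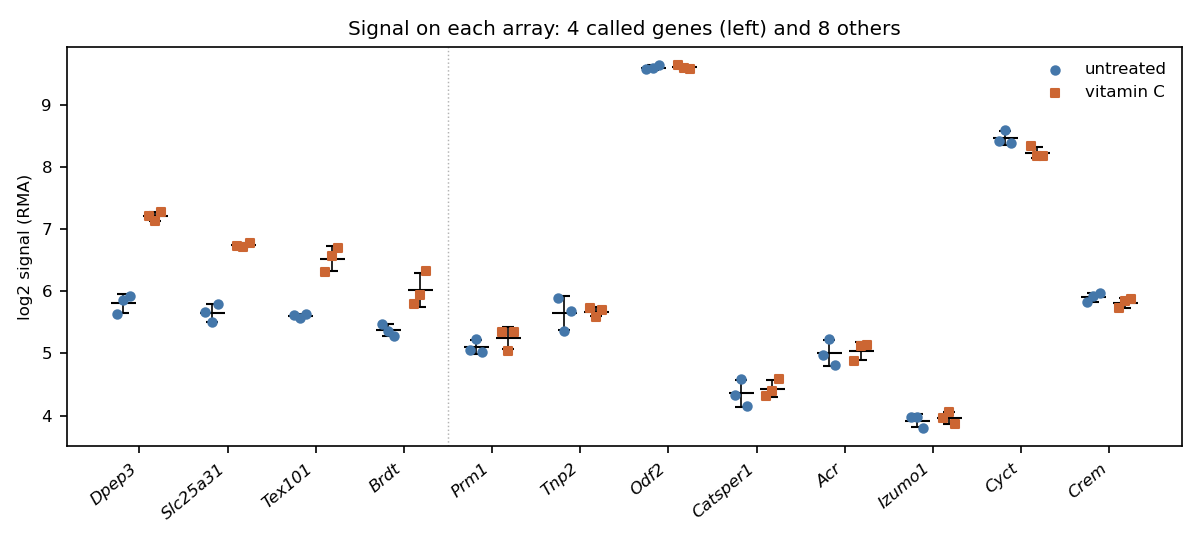
Log2 signal (y axis) on each array for the 4 genes that rose, left of the dotted line, and for 8 genes that did not pass, right of it; circles are untreated and squares vitamin C arrays, and the horizontal marks with bars are the mean ± SD of 3 arrays. The groups are apart for Dpep3, Slc25a31, Tex101 and Brdt, and overlap for the 8 others except Cyct.

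None of the 5 chromatin genes passed. They encode the transition proteins Tnp1 and Tnp2, which displace histones, and the protamines Prm1 and Prm2, which pack sperm DNA. Prm3 is an acidic relative of the protamines. The differences of the 5 genes ran from -0.07 to 0.16, with adjusted p-values of 0.354 or more (limma). Prm1 had 5.06, 5.23 and 5.03 on the untreated arrays and 5.35, 5.04 and 5.35 on the vitamin C arrays. These values overlap, and the 95% interval of the difference ran from -0.10 to 0.39. For Tnp2 the untreated arrays at 5.90, 5.36 and 5.69 were more spread than the vitamin C arrays at 5.73, 5.59 and 5.70. Tnp1 was the noisiest of the 5, with untreated arrays at 4.14, 4.60 and 3.62 and vitamin C arrays at 4.34, 3.78 and 4.24. Its interval from -0.58 to 0.58 was accordingly wide.

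Besides Brdt, the regulators were Crem, the transcription factor that switches on many post-meiotic genes, and the testis-specific serine kinases Tssk1, Tssk2, Tssk3, Tssk4 and Tssk6 of spermatids. None of these 6 passed, and their differences ran from -0.09 to 0.25. Crem had 5.82, 5.92 and 5.97 on the untreated arrays and 5.72, 5.85 and 5.88 on the vitamin C arrays, which overlap, a difference of -0.09 ± 0.07 (SE, limma adjusted p = 0.486). Crem also has forms made outside the germ line, which the probe set does not separate here. Tssk1, Tssk4 and Tssk6 differed by less than 0.1 in size, and Tssk3 by 0.06. The largest difference among the kinases was that of Tssk2, at 0.25 ± 0.09 (SE, limma adjusted p = 0.132). Its untreated arrays were at 4.89, 4.60 and 4.57 and its vitamin C arrays at 4.96, 4.87 and 4.96. Untreated replicate 1 reached into the range of the vitamin C arrays, and without that array the adjusted p was 0.0389. That was the lowest value for Tssk2 in the 18 alternative settings, and the highest was 0.308 (limma). Tssk1 and Tssk2 are closely related neighbouring genes, and cross-hybridisation between them was not tested.

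None of the 10 flagellum genes passed, and their differences ran from -0.05 to 0.20. Odf1, Odf2, Odf3 and Odf4 were listed for the outer dense fibres that stiffen the tail. Odf1 differed by 0.02, Odf3 by -0.01 and Odf4 by 0.12. Odf2 also serves centrosomes and cilia in other cells. Its probe set was the brightest of the 42, which does not rank its RNA against that of other genes, at 9.58, 9.59 and 9.64 on the untreated arrays and 9.64, 9.60 and 9.58 on the vitamin C arrays. The groups coincided, with a 95% interval of the difference from -0.13 to 0.14. Akap3 and Akap4, scaffold proteins of the fibrous sheath, differed by 0.03 and -0.05, on probe sets that were dim in both groups. Catsper1, Catsper2, Catsper3 and Catsper4 form the pore of the calcium channel of the sperm tail. All 4 differences were between 0.08 and 0.20, and the largest, Catsper4 at 0.20 ± 0.08 (SE), did not pass (limma adjusted p = 0.151).

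Of the 15 genes of the acrosome and sperm surface, Dpep3 and Tex101 rose and 13 did not pass. The 13 included the acrosomal protease gene Acr, the egg-fusion factor gene Izumo1, the hyaluronidase gene Spam1, the zona-binding genes Zpbp and Zpbp2 and the surface genes Adam2 and Adam3. The largest difference among them was that of Spaca1, an acrosomal membrane protein gene, at 3.43, 3.31 and 3.22 untreated and 3.47, 3.67 and 3.83 with vitamin C. The groups did not overlap, by a narrow margin and at a dim signal. The difference was 0.33 ± 0.10 (SE, limma adjusted p = 0.0778), and without vitamin C replicate 1 the adjusted p was 0.0475. That was the lowest value in the 17 alternative settings that tested Spaca1, and the highest was 0.196 (limma). Adam2 did not overlap either, at 3.62, 3.61 and 3.68 untreated and 3.82, 3.89 and 3.78 with vitamin C, with a difference of 0.19 ± 0.06 (SE, limma adjusted p = 0.0848). For Acrv1, an acrosomal matrix protein gene, the groups overlapped slightly, at 3.74, 3.95 and 3.87 untreated and 4.03, 3.95 and 4.31 with vitamin C (limma adjusted p = 0.186). Actl7a, an actin-related gene of the acrosome, did not overlap in the opposite direction, with a difference of -0.20 ± 0.08 (SE, limma adjusted p = 0.138). Of the rest, the acrosomal genes Spaca3 and Spaca4 differed by 0.15 and 0.13, Izumo1 by 0.04, Acr by 0.04, Adam3 by 0.07, Zpbp2 by -0.13, and Actl7b, the neighbour and relative of Actl7a, by -0.08. The probe set of Spam1 was the dimmest of the 42, at 2.27, 2.13 and 2.14 untreated and 1.98, 2.16 and 2.39 with vitamin C, values that overlap fully. Zpbp had the widest interval of the 42 genes on the low side, from -0.64 to 0.21, with vitamin C replicate 3 at 3.75 and the other 5 arrays between 4.31 and 4.55.

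In the energy and chaperone group Slc25a31 rose, while the other 4 genes had differences below 0 that did not pass. Cyct encodes the testis form of cytochrome c. It was at 8.42, 8.60 and 8.40 on the untreated arrays and 8.34, 8.18 and 8.17 on the vitamin C arrays. The groups were separate by a small gap, with a difference of -0.24 ± 0.08 (SE, limma adjusted p = 0.104, and 0.0223 with the trended and robust spread model). The latter was the lowest value for Cyct in the 18 alternative settings, and the highest was 0.245 (limma). Gapdhs, the sperm form of the glycolytic enzyme GAPDH, differed by -0.19 ± 0.08 (SE, limma adjusted p = 0.182). Pgk2, the sperm phosphoglycerate kinase gene, was dim, at 3.05, 3.02 and 2.90 untreated and 2.95, 2.74 and 2.85 with vitamin C. Hspa1l, a germ-cell heat-shock protein gene, was at 4.79, 4.80 and 4.66 untreated and 4.38, 4.28 and 4.78 with vitamin C. Vitamin C replicate 3 lay among the untreated arrays, and without it the difference was -0.42 (limma adjusted p = 0.0317), against -0.27 (adjusted p = 0.218) with all arrays. For Hspa1l the adjusted p in the 18 alternative settings ran from 0.0317 to 0.445 (limma).

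For the 38 genes that did not pass, the 95% intervals of the difference lay inside a change of 2-fold in either direction, and for 37 of them inside 1.5-fold, Zpbp being the exception. These limits apply to the measured signal. In 11 of the 42 genes both group means were below 4.01, the lower quartile of all array values, where differences of RNA are in general compressed on arrays. All 4 genes that rose were above it in both groups. Fibroblast markers moved in the same arrays, with 8 of 17 higher and 1 lower, and a mean log2 signal of 5.58 to 5.66 untreated and 6.06 to 6.11 with vitamin C. Of 14 primitive endoderm markers 4 were higher and none lower (5.94 to 6.01 untreated, 6.16 to 6.17 with vitamin C). Of 11 Sertoli and Leydig cell markers 1, the steroid-transport gene Star, was higher and none lower (4.59 to 4.72 and 4.70 to 4.73). In these lists, in that order, 47.1%, 28.6% and 9.09% of the markers were called higher, against 5.75% of all genes. The part of such cells in the 4 rises was not tested.

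**Figure D3:**
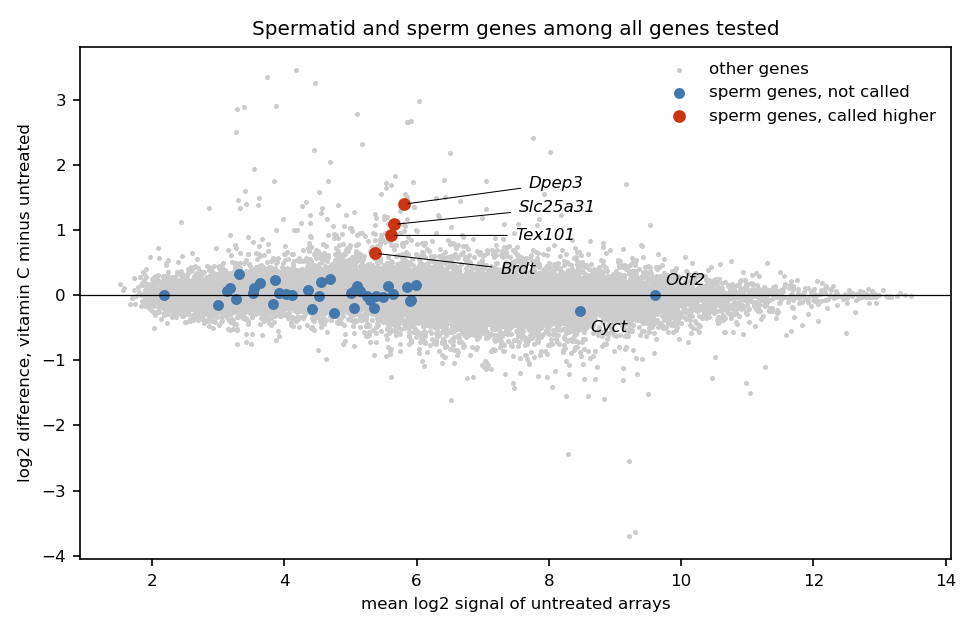
Log2 difference (vitamin C minus untreated, y axis) against the mean log2 signal of the untreated arrays (x axis) for 19938 genes, with the 42 sperm genes in blue and red. The 4 genes that rose have untreated means between 5.37 and 5.81, and Odf2 and Cyct are the only sperm genes with untreated means above 6.

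Promoter windows of 300 bases (250 before the annotated start and 50 after) were found by symbol in the RefSeq table for 36 of the 42 genes, with none for Crem, Odf1, Catsper1, Acr, Adam2 and Adam3. The windows of these 36 genes held a median of 4.5 CpG dinucleotides, where the 15614 tested genes with a window had a median of 15. Among these sperm genes, 18 had fewer than 5 CpG and none of them rose. The 4 genes that rose had 12 (Dpep3), 22 (Slc25a31), 19 (Tex101) and 23 (Brdt). The 32 genes that did not pass had a median of 4, and ranged from 0 for Akap3 and Spam1 to 41 for Catsper2. Of the 11 genes with at least 10 CpG, 4 rose and 7 did not pass, the latter being Catsper2, Odf2 with 35.3 (mean of 4 windows), Zpbp2 with 26, Spaca1 with 16 (mean of 2 windows), Tssk6 with 14, Hspa1l with 11 and Tssk3 with 10. The count of Dpep3 lay below the median of all tested genes. Over all genes with a window, 3.30% of those with fewer than 5 CpG were called higher, against 5.94% to 7.41% in the 4 bins from 5 CpG upwards. The share called lower was likewise smallest under 5 CpG, at 2.46% against 6.40% to 11.1%, so calls in both directions were rarer among CpG-poor genes. These counts describe the sequence, and methylation was not measured on these arrays.

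**Figure D4:**
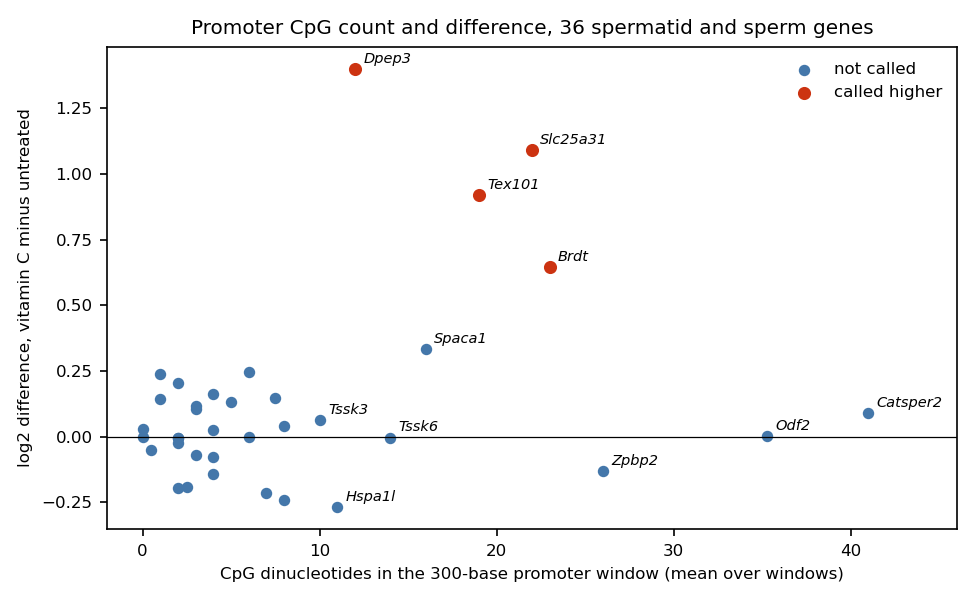
Log2 difference (vitamin C minus untreated, y axis) against the number of CpG dinucleotides in the 300-base promoter window (x axis, mean over windows) for 36 sperm genes; red genes passed the test. The 4 red points have 12 to 23 CpG, and most other genes have fewer than 10.

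Sequence motifs were searched on both strands of these windows. The E-box CACGTG was found in 2 of the 43 windows of the sperm genes (4.65%), those of Brdt and Slc25a31, and in 7.15% of 32851 windows in all. Its first base lay at -78 in Brdt and -93 in Slc25a31, counted from the start. The E2F-type motif GCGGGAA was found in 11.6% of the windows of the sperm genes and 4.60% of all windows, among them that of Slc25a31 at +20. It was also in windows of Prm3, Spaca1 and Zpbp2, which did not pass. The palindromic cAMP response element TGACGTCA, the type of site that Crem binds, was found in 1 window, that of Izumo1 (2.33%, against 1.79% of all windows). Its shorter core TGACG, which the palindrome contains, was in 30.2% of the windows of the sperm genes and 20.8% of all, and in that of Dpep3 at -133. The window of Tex101 held none of these 4 motifs. A match is a description of the letters only.

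A further list held 102 spermatid and sperm genes outside the 42, of which 93 were measured. Of these, 4 rose, 7 fell and 82 did not pass (4.30% higher and 7.53% lower, against 5.75% and 7.4% of all genes), with a median difference of 0.01. The largest rise was that of Pdha2, the autosomal germ-cell form of a pyruvate dehydrogenase subunit, at 4.80, 4.87 and 5.14 untreated and 6.21, 6.05 and 6.24 with vitamin C. The groups were well apart, and the difference was 1.23 ± 0.10 (SE, 2.35-fold, limma adjusted p = 0.000715). Spata16, a gene of acrosome formation, rose by 0.58 ± 0.08 (SE, 1.49-fold). Adam32 (0.44) and Spem1 (0.30) were also called higher, both from untreated means below 4.01. Leaving out a single array ended the call of Spem1 in all 6 cases (adjusted p of 0.0689 to 0.114) and that of Adam32 in 5 of 6 (up to 0.104), the exception being untreated replicate 1.

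The members of this further list that fell included parts of the flagellum. Catsperd, which encodes an accessory subunit of the sperm calcium channel, was at 6.46, 6.73 and 6.51 untreated and 5.57, 5.35 and 5.68 with vitamin C, a 2.05-fold fall (limma adjusted p = 0.00169). The pore genes Catsper1 to Catsper4 of the same channel did not pass. Dnah8, an axonemal dynein heavy chain gene, was at 7.45, 7.40 and 7.50 untreated and 6.44, 6.64 and 6.46 with vitamin C, a 1.92-fold fall (adjusted p = 0.000625). The germ-cell chaperone gene Clgn fell 1.63-fold, and Cox6b2, a testis form of a cytochrome c oxidase subunit that was bright in these cells (10.85 ± 0.067, SD, n = 3, untreated), fell 1.36-fold. The remaining falls, named after their values were seen, were those of Tekt1 (-0.44), Aldoart1 (-0.44) and Ybx2 (-0.39). Cross-hybridisation with transcripts of related genes was not tested for these probe sets.

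Related genes used in other tissues were compared where a probe set had a single symbol, which was not so for Gapdh and Hspa1b. Pgk1, Cycs, Slc25a5 and Hspa8 had 3 such probe sets each, and the one with the highest mean was used. Of 19 measured relatives, 2 fell, none rose and 17 did not pass (limma; 10.5% lower, against 7.4% of all genes). Pgk1, the ubiquitous counterpart of Pgk2, fell by 1.10 ± 0.06 (SE, limma adjusted p = 0.000143), from 11.29, 11.26 and 11.25 untreated to 10.12, 10.17 and 10.20 with vitamin C, while Pgk2 differed by -0.14. With the mean of all its probe sets, Pgk1 also differed by -1.10 (limma adjusted p = 0.000128). The lactate dehydrogenase gene Ldha fell by 1.28 ± 0.07 (SE, limma adjusted p = 0.000143), while its germ-cell counterpart Ldhc differed by 0.34 ± 0.12 (SE, limma adjusted p = 0.0972) and did not pass. Pdha1, the X-linked counterpart of Pdha2, differed by -0.02 ± 0.07 (SE) and did not pass. Slc25a4 and Slc25a5, the carriers of other tissues beside Slc25a31, differed by -0.14 ± 0.06 and -0.11 ± 0.06 (SE) and did not pass. Brd2 and Brd3, BET genes beside Brdt, differed by 0.21 (adjusted p = 0.0543) and 0.12 and did not pass. Cycs, the counterpart of Cyct, differed by 0.13, and the factor genes Creb1 and Atf1 beside Crem by 0.13 and 0.23 (adjusted p = 0.0760). Hspa1a and Hspa8 beside Hspa1l differed by less than 0.1 and did not pass. The differences between a sperm gene and its relative were not tested.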

How the data were processed

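RNA from 3 untreated and 3 vitamin C cultures was measured on one-colour Affymetrix gene arrays after whole-transcriptome amplification and biotin labelling, per the labels' protocols. The deposited log2 signals, a scale inferred from their range, were made by the authors with RMA, per the submitters' processing notes. Its software and settings are not given in these sources. RMA in general equalises array distributions, so a shift shared by all genes would not show. Of 35557 probe sets, 21789 had 1 gene symbol, 1621 several and 12147 none, and no probe set with several symbols named one of the 42 genes. Per gene the probe set with the highest mean was used.

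Differences were tested with limma 3.58.1 in R 4.3.3 (lmFit, eBayes, no covariate) and adjusted by Benjamini-Hochberg over 19938 genes. The fit was tested on simulated data. The labels do not say that equal replicate numbers pair the arrays, so the fit was unpaired. The 42 genes and all other lists were chosen with earlier results of these data known. Values in full were given for called genes, the 5 largest differences not called, and the 3 brightest probe sets. Others named were chosen after their values were seen. In the further lists, up to 4 called genes per direction were named. Depth does not apply to arrays, and their number limits the precision. Promoters came from RefSeq (GRCm38.p6).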

Additional observations from a re-analysis of the deposited data

How the results depend on the processing

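Between 3 and 6 of the 42 genes were called higher in the 18 alternative settings, and Dpep3, Slc25a31 and Tex101 were among them in each. The count called lower became 1 with the trended and robust spread model and ran from 0 to 1 with 1 array left out. Over all genes, 2623 were called, against 4151 with the trended and robust model, 1545 without moderation, 1470 of the same genes with all probe sets tested, 901 at a threshold of 0.01, 4096 at 0.10, and 1483 to 1721 with 1 array left out. Of the 93 further sperm genes, 11 were called, against 7 without moderation, 7 with all probe sets tested, 6 at the threshold of 0.01, 13 with the trended and robust model, 16 at a threshold of 0.10, and 8 to 9 with 1 array left out. The thresholds of 0.01 and 0.10 cut the same fit. Some settings use fewer arrays or genes, and the setting with all probe sets adjusts over 35557 probe sets. What else moved the counts was not tested. The difference of Odf2, 0.0025, changed sign at values near 0, to -0.00095 after median centring of the arrays, and ran from -0.013 to 0.022 with 1 array left out. With the replicate number as a block, 1723 genes were called and 3 of the 42, Brdt having an adjusted p of 0.0557 in limma. Same-numbered arrays deviated from their group means with correlations of 0.052, 0.0096 and -0.024. The labels name no pairing, so the main fit did not pair the arrays, but 3 correlations cannot exclude a pairing. Dim signals limit what the arrays show for 11 of the 42 genes.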

Other observations

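Markers of spermatogonia, the stem and progenitor cells of the male germ line, were a separate list. Of 14 measured, 3 rose, none fell and 11 did not pass (limma), where 5.75% of all genes were called higher and 7.4% lower. Besides Stra8, the retinoic-acid-induced meiotic gatekeeper (2.14-fold higher), these were Sohlh2, a germ-cell transcription factor gene (1.63-fold higher), and the receptor gene Kit (1.35-fold higher). The mean log2 signal of the list was 6.83 to 6.88 on the untreated arrays and 7.06 to 7.08 on the vitamin C arrays.

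The nearest tested genes along the chromosome, 2 on each side, were looked up for the 4 sperm genes that rose. None of the 4 around Dpep3, the 4 around Slc25a31 or the 4 around Tex101 passed the limma test. These include Dpep2, the adjacent dipeptidase gene (0.11 ± 0.10, SE), Hspa4l (-0.08 ± 0.06, SE) and Lypd3 and Lypd10, relatives of Tex101 (0.10 ± 0.07 and 0.14 ± 0.07, SE). Next to Brdt, Tgfbr3 was higher by 0.35 ± 0.07 (SE, limma adjusted p = 0.0244), and Cdc7, Ephx4 and Lpcat2b did not pass. Of all genes tested, 5.75% were called higher and 13.2% in either direction. Whether the neighbours differ from these shares was not tested.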
